A study of Homo sapiens with 8 samples.

Results

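The genes described here are ATF4, ATF3, DDIT3, ASNS, TRIB3, SESN2, PSAT1, PHGDH, CHAC1 and DDIT4, the transcription factor ATF4 and genes known as its targets in the integrated stress response. They were taken as a list of names, without a threshold on their values, but with earlier results of these data known. In the deposited splicing tables, 9 of these 10 genes had at least 1 event, out of 12067 genes with an event in all, and CHAC1 had none. In whole cells 9 of them had 39 events and 7 passed the filter for a test of abundance. In the cytoplasm 7 of them had 19 events and all 7 passed that filter. The authors' cytoplasmic expression table, which holds 6757 genes, listed 8 of the 10, all but DDIT3 and DDIT4.

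RNA was taken from U2OS cells, a human osteosarcoma line, 48 h after transfection with 20 nM siRNA. The control groups received an siRNA against EGFP, a gene that is not part of the human genome, and the depleted groups received CHERP #2 siRNA, a single siRNA against the splicing-related protein CHERP. Both siRNAs were used on whole cells and on the cytoplasm, the supernatant of cells lysed with NP-40, so that 4 groups of 2 libraries, 8 in all, were compared. The methods call them biological duplicates of the same line, hence p-values measure the spread between cultures of 1 line, and effects of CHERP #2 siRNA on other RNAs cannot be told apart from those of CHERP.

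In the integrated stress response, kinases that sense stress phosphorylate the translation factor eIF2, and protein synthesis slows down while the ATF4 mRNA, which carries short upstream reading frames, is translated more. ATF4 then binds composite C/EBP-ATF response elements and switches on genes for amino acid synthesis and transport, for tRNA charging and for redox balance. With lasting stress it also acts through CHOP, the product of DDIT3. In cultured cells this programme is known for its response to amino acid shortage, to unfolded protein in the endoplasmic reticulum and to mitochondrial defects.

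Some members carry the element TGATGNAA, searched on both strands, in a promoter window from 250 bases before to 50 bases after the start of transcription. In the RefSeq promoter sequences of GRCh38.p14, which hold all 10 members in 16 windows, 3.62% of all 35116 windows and 4.46% of all 27305 genes had such a match. The members with a match were 3 of 10, namely ATF3, ASNS and CHAC1. The matches are shown in capitals within 30 bases, read 5′ to 3′ on the strand of the gene. The members were chosen as known targets of ATF4, which binds such elements, so these matches are not independent of that choice. Their coordinates are in GRCh37, by exact match, namely chr1:212738547-212738576 on the plus strand for ATF3, chr7:97501770-97501799 on the minus strand for ASNS and chr15:41245449-41245478 on the plus strand for CHAC1.
ATF3 promoter: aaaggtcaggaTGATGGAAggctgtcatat
ASNS promoter: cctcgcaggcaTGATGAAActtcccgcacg
CHAC1 promoter: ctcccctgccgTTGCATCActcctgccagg
In CHAC1 the match lay on the strand opposite to the gene. The first base of the match was at position -191 in ATF3, -68 in ASNS and -209 in CHAC1, counted from the RefSeq start of the transcript that the window belongs to. These starts are not the outer ends of the genes as annotated by GENCODE, which are given with each gene further on. Against those, the matches in ASNS and CHAC1 lie within the gene, and the match in ATF3 lies upstream of it. A match is a description of letters, and the other 7 members had none within these windows.

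The siRNA target was reported first as a check of the labels. CHERP had 103 and 77 reads in the EGFP siRNA libraries of whole cells and 3 and 10 reads in the CHERP siRNA libraries. It thus passed the filter only through the group in which it was high, and its log2 fold change was -3.46 (SE 0.57, limma). In the cytoplasm the reads were 31 and 21 against 3 and 4, below the filter for a test. The reads summed over all events ran from 29409956 to 35664568 per whole-cell library and from 5370756 to 6580099 per cytoplasmic library, and a read on several events counted at each. As for the cell type, VIM had 75542 to 106604 reads and FN1 14846 to 21074 in whole cells, while SPARC and COL1A2 had no event and RUNX2, a bone factor, had 0 to 18 reads. The epithelial markers CDH1, ESRP1 and KRT7 had at most 30, 4 and 9 reads in whole cells, and EPCAM and the leukocyte and hepatocyte markers had no event.

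Abundance is given as reads per kilobase, the sum over the skipped exon (SE), alternative 5′ splice site (A5SS) and alternative 3′ splice site (A3SS) events of a gene of the reads divided by the effective length, with libraries scaled by median ratios. It depends on how many events a gene has, therefore it was compared only within a gene and a fraction. Gene positions are those of GRCh37. In bulk RNA of this kind, fewer cells with a transcript and less transcript per cell cannot be told apart.

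With CHERP siRNA, RNA of ASNS, ATF3, SESN2 and PSAT1 rose in whole cells, and RNA of ATF4, ASNS, PHGDH and ATF3 rose in the cytoplasm. Thus 4 of the 7 members tested were higher in each fraction and none was lower, at an adjusted p under 0.05 in limma. Without either of the whole-cell CHERP siRNA libraries, fewer members were called in whole cells, as were fewer of all genes. The median log2 fold change of the members was then 0.81 without the first library and 0.65 without the second. Of all genes tested, 18.8% were higher and 18.4% lower in whole cells (9660 genes), and 24.6% were higher and 23.6% lower in the cytoplasm (7293 genes). The median log2 fold change of the members tested was 0.73 in whole cells and 0.48 in the cytoplasm, against 0.01 and -0.01 over all genes tested. Both CHERP siRNA libraries lay above both EGFP siRNA libraries for 5 of 7 members in whole cells, where 35.1% of all genes did so, and for 6 of 7 members in the cytoplasm, where 37.6% did. When libraries were scaled by total abundance, the split over all cytoplasmic genes moved to 19.3% higher and 28.8% lower, the median gene moved to -0.10, and 4 members were higher. In whole cells this scaling left 3 members higher, without SESN2, where 17% of all genes were higher and 20.5% lower.

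**Figure D1:**
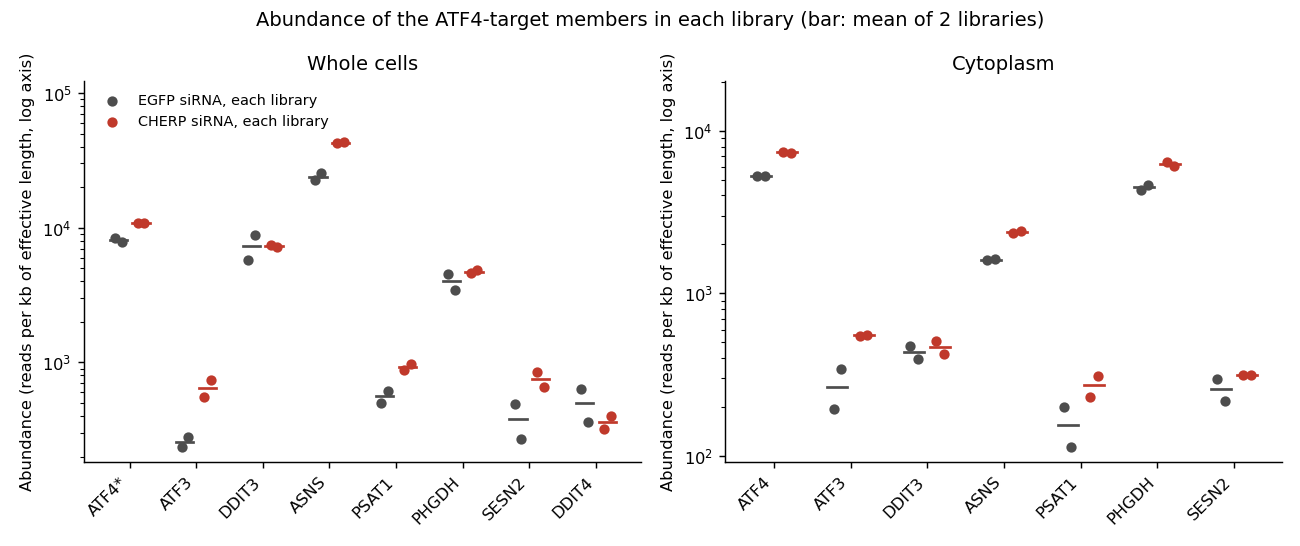
Abundance of each tested member in each library, in reads per kilobase of effective length on a log axis, in whole cells (left) and the cytoplasm (right); points are libraries, bars the mean of 2, grey EGFP siRNA and red CHERP siRNA. ATF4* in whole cells rests on reads of its retained intron event. The red points lie above the grey ones for ATF4, ATF3, ASNS, PSAT1 and PHGDH in both panels and for SESN2 in both, and the groups overlap for DDIT3 and DDIT4; heights differ between genes with the number of events.

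ATF4 (ENSG00000128272.10, chr22:39915700-39918688, plus strand), the factor at the centre of the response, had 1 SE event in the cytoplasm. Its abundance was 5306 and 5259 in the EGFP siRNA libraries and 7454 and 7320 in the CHERP siRNA libraries. The groups did not overlap, and the log2 fold change was 0.48 (SE 0.08, adjusted p = 0.000367, limma). In whole cells ATF4 had no SE, A5SS or A3SS event, and its only value came from the retained intron (RI) event when all 5 event types were summed. That abundance was 8439 and 7833 with EGFP siRNA against 10847 and 10855 with CHERP siRNA. Here too the groups did not overlap, and the log2 fold change was 0.42 (SE 0.11, adjusted p = 0.0173, limma), where 18.5% of 9850 genes were higher. In the authors' cytoplasmic table, whose header does not name the siRNA of a column, the columns were assigned as given under the processing of the data. The authors' mean of normalized counts, which carries no error here, was 10027 with EGFP siRNA and 15915 with CHERP siRNA.

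ATF3 (ENSG00000162772.12, chr1:212738676-212794119, plus strand), a bZIP factor that ATF4 induces and that acts on stress genes in turn, was higher with CHERP siRNA in both fractions. In whole cells its abundance was 237 and 279 with EGFP siRNA against 556 and 736 with CHERP siRNA. The lower depleted library was well above the higher control library, with a log2 fold change of 1.28 (SE 0.27, adjusted p = 0.00529, limma). In the cytoplasm the abundance was 194 and 341 with EGFP siRNA against 550 and 554 with CHERP siRNA. The depleted libraries were close together and the control libraries far apart, without overlap, and the log2 fold change was 1.07 (SE 0.27, adjusted p = 0.00682). These values rested on 33 to 112 reads per whole-cell library and 16 to 59 reads per cytoplasmic library, all at 1 event. The whole-cell call was lost without the second CHERP siRNA library, at a log2 fold change of 1.08 (adjusted p = 0.0780). Its cytoplasmic log2 fold change was 0.68 (adjusted p = 0.0471) without the first EGFP siRNA library.

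DDIT3 (ENSG00000175197.6, chr12:57910371-57915520, minus strand), which encodes CHOP, the bZIP factor of the late response, did not pass the test. In whole cells its abundance was 5786 and 8819 with EGFP siRNA against 7386 and 7149 with CHERP siRNA. Both depleted libraries lay between the control libraries, and the log2 fold change was 0.02 (SE 0.18, adjusted p = 0.928, limma). The value turned on the control libraries, since it was -0.28 (adjusted p = 0.0290) without the first EGFP siRNA library and 0.33 (adjusted p = 0.0142) without the second. In the cytoplasm the abundance was 472 and 397 against 508 and 424, overlapping, with a log2 fold change of 0.10 (SE 0.22, adjusted p = 0.733). The gene was not listed in the authors' expression table.

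ASNS (ENSG00000070669.12, chr7:97480989-97501854, minus strand), which makes asparagine from aspartate and glutamine, had the most reads of the members in whole cells, on 14 SE and A3SS events that share exons. Its abundance in whole cells was 22586 and 25319 with EGFP siRNA against 42380 and 43035 with CHERP siRNA. The groups lay far apart, each with its libraries close together, and the log2 fold change was 0.84 (SE 0.10, adjusted p = 0.000241, limma). In the cytoplasm the abundance was 1598 and 1619 against 2348 and 2428, again without overlap, with a log2 fold change of 0.57 (SE 0.11, adjusted p = 0.00162). Both values stayed past the threshold under every alternative fitted, with adjusted p-values up to 0.0173 in whole cells and 0.0169 in the cytoplasm. The authors' mean was 1374 with EGFP siRNA and 2472 with CHERP siRNA.

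PHGDH (ENSG00000092621.7, chr1:120191034-120286841, plus strand) and PSAT1 (ENSG00000135069.9, chr9:80912041-80945009, plus strand) encode the enzymes of the opening steps of serine synthesis from a glycolytic intermediate. The abundance of PHGDH in the cytoplasm was 4343 and 4621 with EGFP siRNA against 6389 and 6074 with CHERP siRNA. The groups lay well apart, and the log2 fold change was 0.47 (SE 0.08, adjusted p = 0.000767, limma). With the deepest event alone it was 0.22 (adjusted p = 0.130). In whole cells PHGDH was at 4549 and 3437 against 4595 and 4861, where the lower depleted library was just above the higher control library. Its log2 fold change of 0.26 (SE 0.15, adjusted p = 0.221) did not pass the test. It was 0.46 (adjusted p = 0.00283) without the first EGFP siRNA library.

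PSAT1 had a log2 fold change of similar size in both fractions, and it passed the test only in whole cells. Its abundance there was 500 and 617 with EGFP siRNA against 876 and 979 with CHERP siRNA. The groups did not overlap, and the log2 fold change was 0.73 (SE 0.22, adjusted p = 0.0268, limma). In the cytoplasm it was 199 and 114 against 231 and 313, without overlap but on only 21 to 59 reads per library, with a log2 fold change of 0.80 (SE 0.32, adjusted p = 0.0586). The whole-cell call was lost without either CHERP siRNA library, at adjusted p = 0.104 and 0.222. The authors' means were 2509 and 3431 for PHGDH and 320 and 551 for PSAT1, with EGFP and CHERP siRNA in that order.

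SESN2 (ENSG00000130766.4, chr1:28586029-28609002, plus strand), a stress-induced inhibitor of mTORC1 signalling that is also known as a p53 target, was at 488 and 269 with EGFP siRNA against 844 and 653 with CHERP siRNA in whole cells. The control libraries differed widely but stayed below both depleted libraries, and the log2 fold change was 1.01 (SE 0.31, adjusted p = 0.0292, limma). This call was lost, at adjusted p = 0.0812, when limma was fitted without its trend on abundance, and at adjusted p = 0.152 without the first CHERP siRNA library. The log2 fold change was 0.60 (adjusted p = 0.0443) without the second EGFP siRNA library. In the cytoplasm SESN2 was at 298 and 217 against 313 and 314, on 47 to 76 reads at 1 exon, with a log2 fold change of 0.29 (SE 0.25, adjusted p = 0.368). The authors' mean, made from all reads of the gene, was 966 with EGFP siRNA and 1930 with CHERP siRNA in the same fraction.

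DDIT4 (ENSG00000168209.4, chr10:74033678-74035794, plus strand), which encodes the mTORC1 inhibitor REDD1, was the only member tested with a log2 fold change below 0. In whole cells it was at 633 and 362 with EGFP siRNA against 323 and 401 with CHERP siRNA. The groups overlapped and the test was not passed, with a log2 fold change of -0.40 (SE 0.31, adjusted p = 0.342, limma). Without the second EGFP siRNA library it was -0.80 (adjusted p = 0.0203), and without the first it was -0.01 (adjusted p = 0.981). DDIT4 had no cytoplasmic event and was not listed in the authors' expression table.

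TRIB3 (ENSG00000101255.6, chr20:343479-378203, plus strand) encodes a pseudokinase that restrains ATF4 and AKT, and CHAC1 (ENSG00000128965.7, chr15:41245160-41248710, plus strand) encodes an enzyme that breaks down glutathione. TRIB3 had 4 and 0 reads with EGFP siRNA and 2 and 6 reads with CHERP siRNA at its only event in whole cells, too few for a test. CHAC1 had no event at all. In the cytoplasm the authors' mean of TRIB3 was 1126 with EGFP siRNA and 1739 with CHERP siRNA, and that of CHAC1 was 282 and 642. All 8 members in that table had a higher authors' mean with CHERP siRNA, where 58.2% of the 6757 genes in it did, and the table holds only genes past the authors' own threshold.

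The ratio of the authors' means, CHERP over EGFP siRNA, ran from 1.37 for PHGDH to 2.28 for CHAC1. It was 1.54 for TRIB3, 1.59 for ATF4, 1.72 for PSAT1, 1.80 for ASNS, 2.00 for SESN2 and 2.10 for ATF3. The folds fitted from events in the same fraction were 1.22 for SESN2, 1.48 for ASNS and 1.40 for ATF4, below these ratios, and 2.10 for ATF3, 1.74 for PSAT1 and 1.39 for PHGDH, close to them. Both sets rest on the same cytoplasmic libraries.

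**Figure D2:**
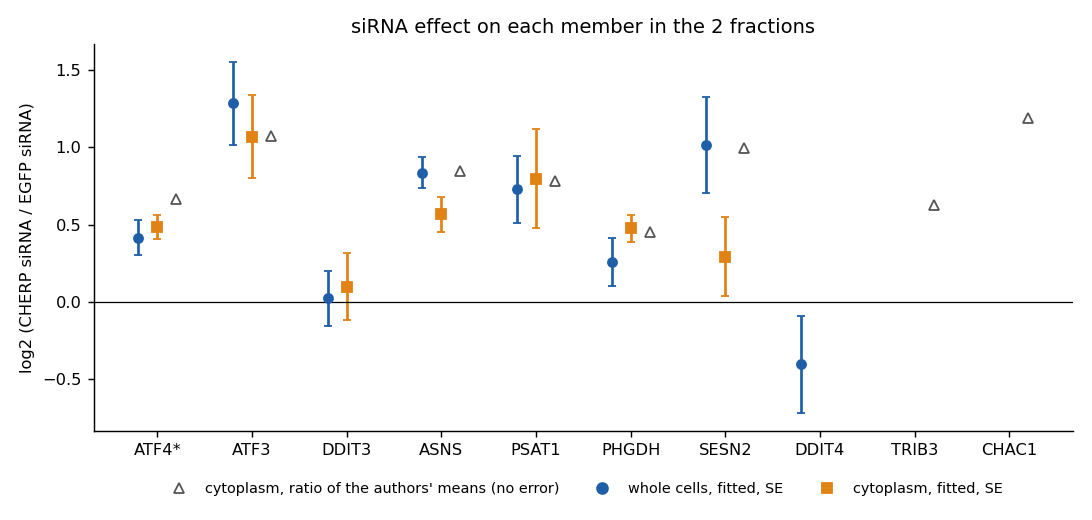
log2 ratio of CHERP siRNA over EGFP siRNA for each member, fitted from events in whole cells (circles) and the cytoplasm (squares) with standard errors, and from the authors' cytoplasmic means (open triangles, no error). ATF4* in whole cells uses the retained intron event. ATF3 lies at 1.28 and 1.07 among the fitted values, DDIT3 lies at 0.02 and 0.10, DDIT4 at -0.40, and TRIB3 and CHAC1 have a triangle only.

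Whether the effect of the siRNA differed between the fractions was tested by an interaction in limma over all 8 libraries. The events summed were not the same in whole cells and the cytoplasm, 14 and 4 for ASNS and 2 and 1 for SESN2. The effective length of the skipping form also differed, 144 bases in whole cells and 73 in the cytoplasm for the event types summed. The values of a gene in the fractions are thus not the same measure. None of the 6 members with a value in both fractions passed, and 0 of 7059 genes did, while 358 genes and none of these members had an unadjusted p under 0.05. The largest difference, cytoplasm minus whole cells on the log2 scale, was -0.72 (SE 0.43) for SESN2, and that of ASNS was -0.27 (SE 0.13). The others were -0.21 (SE 0.41) for ATF3, 0.07 (SE 0.42) for PSAT1, 0.07 (SE 0.28) for DDIT3 and 0.22 (SE 0.19) for PHGDH, and all 6 had an adjusted p of at least 0.990. With all 5 event types, an alternative chosen after seeing the data, the difference was 0.11 (SE 0.12) for ATF4. A difference between the fractions was thus not detectable with these libraries, which does not show that the effects were alike.

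None of the splicing events of the members passed the quasi-binomial test, which models the share of reads on the inclusion form, with Benjamini-Hochberg adjustment within an event type. In whole cells 0 of 39 member events had an FDR under 0.05, where 1.12% of 89379 events did, and in the cytoplasm 0 of 19, where 0.413% of 43559 did. At an unadjusted p under 0.05 there were 3 and 1 member events, while 6.51% and 4.24% of all events were under it. By limma on the log2 odds, which called 0 events in either fraction, 4 and 3 member events had an unadjusted p under 0.05, beside 7499 of 89379 and 3624 of 43559 events in all. None of the 12 member events found in both fractions differed in its response at an FDR under 0.05, where 0.0327% of 33604 events did, and none had an unadjusted p under 0.05, where 3.26% did.

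The splice sites of the events with the most reads, or with inclusion of sequence outside the reference transcript, are given here from GRCh37 on the strand of the gene, 5′ to 3′. Donors run from 3 exon bases to 6 intron bases and acceptors from 20 intron bases to 3 exon bases. Capitals mark the first or last 2 bases of the intron.
ATF4 intron donor: ggcGTgagt
ATF4 intron acceptor: ggcttctgattctcattcAGgct
DDIT3 intron donor: cagGTaaac
DDIT3 intron acceptor: cactccccattatcctgcAGatg
ASNS upstream acceptor: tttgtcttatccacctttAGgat
ASNS canonical acceptor: tgtttttgtttgtgaaatAGgct
ATF3 cassette exon acceptor: aagtctggatttctccccAGctc
ATF3 cassette exon donor: cagGTacac
PHGDH cassette exon acceptor: ctccttgtttctctactcAGgcc
PHGDH cassette exon donor: ctgGTaggt

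The retained intron of ATF4 is intron 1, chr22:39916757-39917358 on the plus strand, 602 bases between the first exon and the exon in which the coding sequence begins. In whole cells its inclusion level was 1.33% and 2.29% with EGFP siRNA against 1.92% and 1.83% with CHERP siRNA. The depleted libraries lay between the control libraries (p = 0.862, FDR 0.960, quasi-binomial test). In the cytoplasm the level was 0.607% and 0.457% against 0.528% and 0.265%, also overlapping (p = 0.284, FDR 0.797, quasi-binomial test). By these levels, which divide reads by effective length, nearly all ATF4 RNA at this event lacked the intron. The whole-cell libraries had 1100 to 1610 skipping reads each against 77 to 163 inclusion reads. The cytoplasmic SE event of ATF4 is exon 2, chr22:39917359-39917676, which holds the end of the 5′ UTR and the start of the coding sequence. It was skipped by 2 reads in 1 control library and by none in the other 3.

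DDIT3 kept more of an intron of its reference transcript in whole cells than ATF4. Its intron 2, chr12:57911222-57911488 on the minus strand, 267 bases within the 5′ UTR, had an inclusion level of 42.1% and 31.7% with EGFP siRNA against 27.0% and 32.3% with CHERP siRNA in whole cells. The groups overlapped (p = 0.123, FDR 0.633, quasi-binomial test). The intron also holds 2 upstream acceptors, and the 6 A3SS events of DDIT3 in whole cells compare these, the canonical acceptor and 1 that lies 14 bases inside exon 3. The canonical acceptor was used over the inner one at 85.4% and 78.1% with EGFP siRNA against 86.2% and 76.8% with CHERP siRNA, which overlap (p = 0.729, FDR 0.923, quasi-binomial test). Since whole reads within the intron count for the upstream acceptors and for retention alike, these events share reads. In the cytoplasm no RI event of DDIT3 was present in the tables used here, and the acceptor event had 4 to 21 reads per library.

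ASNS had an A3SS event at exon 10, where an acceptor upstream of the canonical one adds 74 bases of intron 9, chr7:97483993-97484066 on the minus strand, a length that is not a multiple of 3 within the coding part of the gene. The longer form was at 2.60% and 1.44% with EGFP siRNA against 3.62% and 3.11% with CHERP siRNA in whole cells. Both depleted libraries were higher, yet the test was not passed (p = 0.126, FDR 0.871, quasi-binomial test). In the cytoplasm it had 0 and 0 inclusion reads against 2 and 2, levels of 0%, 0%, 1.32% and 1.26% (p = 0.0956, FDR 0.828, quasi-binomial test). Its exon 2, chr7:97499090-97499125 in the 5′ UTR, was included in the cytoplasm at 84.3% and 87.0% with EGFP siRNA and at 100% in both depleted libraries, on 2, 1, 0 and 0 skipping reads (p = 0.0623, FDR 0.761, quasi-binomial test). In whole cells that exon was at 95.4% to 100% in all 4 libraries, and the groups overlapped. The exon 10 event adds sequence outside the reference transcript, and it was not the A3SS event of ASNS with the most reads. That event lay in exon 3, where 74 bases at chr7:97498418-97498491 were kept at 99.1% and 100% with EGFP siRNA in whole cells. With CHERP siRNA the level was 98.4% and 98.7%, lower in both libraries, and the test was not passed (p = 0.114, FDR 0.871, quasi-binomial test).

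The lowest p of any member event in whole cells was that of ASNS exon 3, chr7:97498220-97498491, which holds the start of the coding sequence. It was skipped by 0 and 0 reads with EGFP siRNA and by 10 and 8 reads with CHERP siRNA, beside 581 to 1262 inclusion reads (p = 0.0130, FDR 0.494, quasi-binomial test). The control libraries had fewer reads in all, and the event with the shorter form of this exon shares the 10 and 8 skipping reads (p = 0.0142, quasi-binomial test). These events, ASNS exon 2 and the PHGDH exon described next were named after their values were seen.

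PHGDH had a rare exon of 151 bases in intron 3, chr1:120266942-120267092 on the plus strand, outside the reference transcript. Its inclusion level was 1.15% and 0.671% with EGFP siRNA against 0% and 0.373% with CHERP siRNA in whole cells, on 10, 5, 0 and 4 inclusion reads in that order (p = 0.0453, FDR 0.784, quasi-binomial test). In the cytoplasm it was 0.752% and 0.709% against 0% and 0%, on 3, 3, 0 and 0 reads (p = 0.0145, FDR 0.762, quasi-binomial test). The depleted libraries were lower in both fractions, on a handful of reads, and neither value passed the FDR threshold.

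ATF3 had an exon of 221 bases in intron 3, chr1:212792388-212792608, which is also outside the reference transcript and was mostly skipped. Its inclusion level was 3.79% and 6.61% with EGFP siRNA against 7.49% and 3.72% with CHERP siRNA in whole cells, overlapping (p = 0.996, quasi-binomial test). In the cytoplasm it was 5.42% and 7.03% against 10.5% and 7.24% (p = 0.515, FDR 0.764, quasi-binomial test). In the cytoplasm ATF3 also had 2 RI events, 87 bases within the coding part of exon 2, chr1:212788403-212788489, and 91 bases of intron 3, chr1:212792609-212792699, each spliced out by 1 read in 1 library and by none in the other 3. The other members had near-complete inclusion of canonical exons. The mean level per group was at least 95.6% at SESN2 exons 6 and 9, PSAT1 exon 8 and DDIT4 exon 2 in whole cells, and at least 93.9% at SESN2 exon 9 and PSAT1 exon 7 in the cytoplasm.

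**Figure D3:**
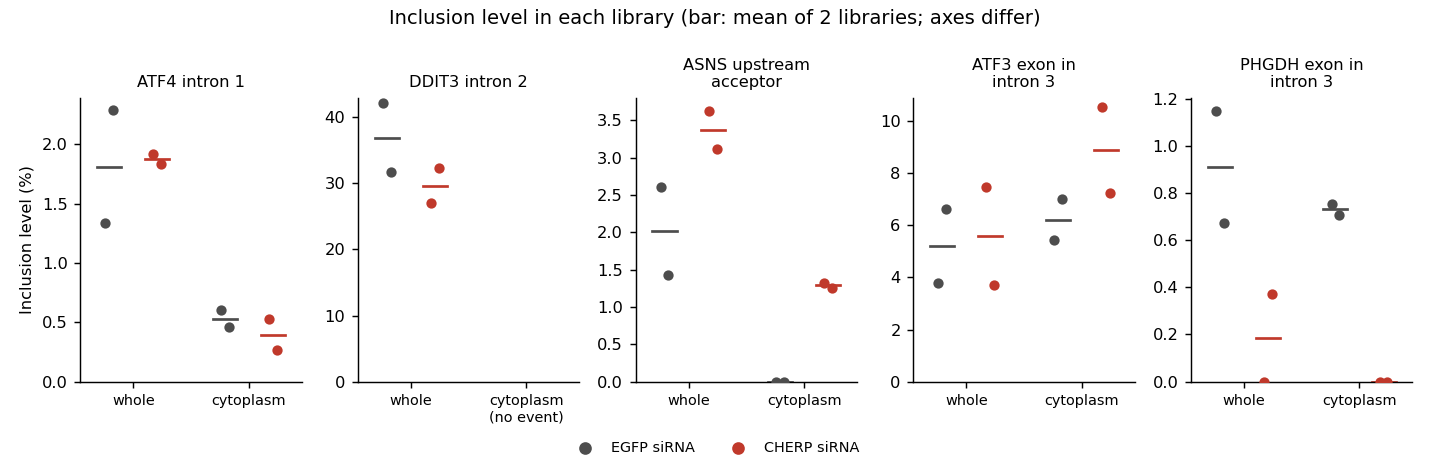
Inclusion level in percent of 5 events of the members in each library, points being libraries and bars the mean of 2, grey EGFP siRNA and red CHERP siRNA, with a separate axis from 0 for each event. The groups overlap for ATF4 intron 1, DDIT3 intron 2 and, in whole cells, the ATF3 exon; the upstream acceptor of ASNS is higher and the rare PHGDH exon lower in the red libraries, with no FDR under 0.05.

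Enzymes of amino acid synthesis were listed beside ASNS, PSAT1 and PHGDH. Of 11 further genes of amino acid synthesis and the linked mitochondrial folate steps, 7 were higher and none lower in whole cells. In the cytoplasm 5 of the 8 tested were higher and 1 lower. The medians in whole cells and the cytoplasm were 0.46 and 0.45 on the log2 scale. The shares were 63.6% higher in whole cells, and 62.5% higher and 12.5% lower in the cytoplasm. Of all genes tested, 18.8% were higher and 18.4% lower in whole cells, and 24.6% and 23.6% in the cytoplasm. In whole cells 3 were higher without the first CHERP siRNA library, 4 without the second and 4 without the trend in limma, and in the cytoplasm 3 were higher under scaling by total abundance, without the first EGFP siRNA library or without the second CHERP siRNA library. ALDH1L2, a mitochondrial folate enzyme, had 7 and 16 reads with EGFP siRNA against 61 and 50 with CHERP siRNA in whole cells. It thus passed the filter only through the group in which it was high, and its log2 fold change was 2.01 (SE 0.42). It is among the 7 counted as higher in whole cells. With an average of at least 50 reads per library required, ALDH1L2 was not tested. Then 6 of 10 were higher and none lower in whole cells, beside 20.1% and 20.1% of all genes. CBS, which makes cystathionine, rose by 1.03 in whole cells and 0.57 in the cytoplasm. PSPH, the last enzyme of serine synthesis, rose by 0.97 in whole cells, ALDH18A1, which starts proline synthesis, by 1.21 in the cytoplasm, and SHMT2, which turns serine into glycine, by 0.53 there.

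Amino acid transporters were mixed. Of 9 tested in each fraction, 3 were higher and 1 lower in whole cells, and 4 were higher and 1 lower in the cytoplasm. That is 33.3% higher and 11.1% lower in whole cells, beside 18.8% and 18.4% of all genes. In the cytoplasm it is 44.4% and 11.1%, beside 24.6% and 23.6%. SLC6A9, a glycine carrier, rose by 1.52 in whole cells and 1.04 in the cytoplasm on the log2 scale, and SLC7A11, the cystine carrier, by 1.38 and 1.00. SLC7A5, a carrier of large neutral amino acids, rose by 0.61 in whole cells. SLC38A2, a glutamine and alanine carrier that is known to rise on amino acid shortage, fell by 0.96 (SE 0.13, adjusted p = 0.000110, limma) in the cytoplasm.

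The tRNA synthetases, which charge tRNAs with amino acids, were counted in 2 lists. Of 12 synthetases known as ATF4 targets, 7 were higher and none lower in whole cells, and 7 were higher and 1 lower in the cytoplasm. Their medians were 0.42 and 0.42. Thus 58.3% were higher in each fraction, where 18.8% and 24.6% of all genes were. In the cytoplasm 8.33% were lower, and of all genes 18.4% were lower in whole cells and 23.6% in the cytoplasm. With the deepest event alone, 4 were higher in the cytoplasm. SARS, for serine, rose by 1.27 and 1.36 on the log2 scale, GARS, for glycine, by 0.85 and 0.88, and WARS, for tryptophan, by 0.75 and 0.99, in whole cells and the cytoplasm. Of the other cytosolic synthetases, 2 were higher and 2 lower of 8 tested in whole cells, and 2 were higher and 2 lower of 6 in the cytoplasm. That is 25% each way in whole cells and 33.3% each way in the cytoplasm, with medians of 0.01 and -0.09. HARS, for histidine, rose by 0.85 and 0.63, whereas DARS, for aspartate, fell by 0.64 and 0.96. The difference between the 2 lists was not tested.

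Among 19 other targets of ATF4 and CHOP, 13 were tested in whole cells, of which 4 were higher and 2 lower. In the cytoplasm 15 were tested, of which 9 were higher and 2 lower. The shares were 30.8% higher and 15.4% lower in whole cells, beside 18.8% and 18.4% of all genes. In the cytoplasm they were 60% and 13.3%, beside 24.6% and 23.6%. TNFRSF10B, a death receptor that CHOP and p53 both induce, rose by 1.07 in whole cells on the log2 scale, ERO1L, an oxidase of the endoplasmic reticulum, by 1.00 and LONP1, a mitochondrial protease, by 0.95. In the cytoplasm BBC3, which encodes the BH3-only protein PUMA and is also on the list of p53 targets, rose by 1.25 (SE 0.39, adjusted p = 0.0201, limma). KLHL24 rose by 1.02 there, while BCL2L11, which encodes the BH3-only protein BIM, fell by 0.99. Of the partners of ATF4, 1 of 8 was tested in whole cells, with none higher or lower, and 2 in the cytoplasm, with NUPR1, a small stress factor, higher by 0.40.

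The machinery upstream of ATF4 had genes called in both directions in each fraction. Of the eIF2 kinases, eIF2 and eIF2B subunits and phosphatases, 3 were higher and 3 lower of 19 tested in whole cells, and 4 were higher and 2 lower of 16 in the cytoplasm. That is 15.8% each way in whole cells, where 18.8% and 18.4% of all genes were higher and lower, and 25% and 12.5% in the cytoplasm, where 24.6% and 23.6% were. EIF2B5, the catalytic subunit of eIF2B, rose by 0.66 and 0.70 on the log2 scale and EIF2S3, the gamma subunit of eIF2, by 0.66 and 0.66, in whole cells and the cytoplasm. OMA1, the mitochondrial protease that relays stress to the kinase HRI, fell by 0.76 in whole cells, and EIF2AK2, the kinase PKR, fell by 0.61 in the cytoplasm. Phosphorylation of eIF2 was not measured.

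The ATF6 and IRE1 branches of the unfolded protein response, which run beside the ATF4 branch, had 4 genes higher and 1 lower of 16 tested in whole cells and 6 higher and 3 lower of 17 in the cytoplasm, with medians of 0.06 and 0.05. The shares were 25% higher and 6.25% lower in whole cells, and 35.3% higher and 17.6% lower in the cytoplasm, beside 18.8%, 18.4%, 24.6% and 23.6% of all genes. CALR, a chaperone, rose by 1.26 and 1.32 on the log2 scale, and EDEM1, which takes misfolded glycoproteins to degradation, by 0.88 and 1.25. SEL1L, of the same degradation route, rose by 0.41 in whole cells, while HSP90B1, the chaperone GRP94, fell by 0.53 in the cytoplasm. HSPA5, the chaperone BiP and the usual readout of these branches, was named after its values were seen. It had a log2 fold change of 0.07 (SE 0.10, adjusted p = 0.591, limma) in whole cells and -0.24 (SE 0.10, adjusted p = 0.0734) in the cytoplasm. Under scaling by total abundance these branches had 2 genes higher and 5 lower in the cytoplasm, and without the second EGFP or the first CHERP siRNA library of the cytoplasm 2 were higher, as were 2 in whole cells without either CHERP siRNA library.

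Some targets of p53, which include SESN2 by common knowledge, rose as well. Of 15 listed p53 targets tested in each fraction, 7 were higher and none lower in whole cells, and 6 were higher and 1 lower in the cytoplasm. That is 46.7% higher in whole cells, where 18.8% of all genes were higher and 18.4% lower. In the cytoplasm it is 40% higher and 6.67% lower, beside 24.6% and 23.6% of all genes. Among them were FAS at 1.71 and 1.59, CDKN1A, at 1.48 in the cytoplasm, and MDM2 at 1.13 in whole cells. TNFRSF10B and, in the cytoplasm, BBC3 are counted both here and among the other targets of ATF4 and CHOP. The part of p53 in the values of SESN2, ATF3, TNFRSF10B or BBC3 was not tested.

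**Figure D4:**
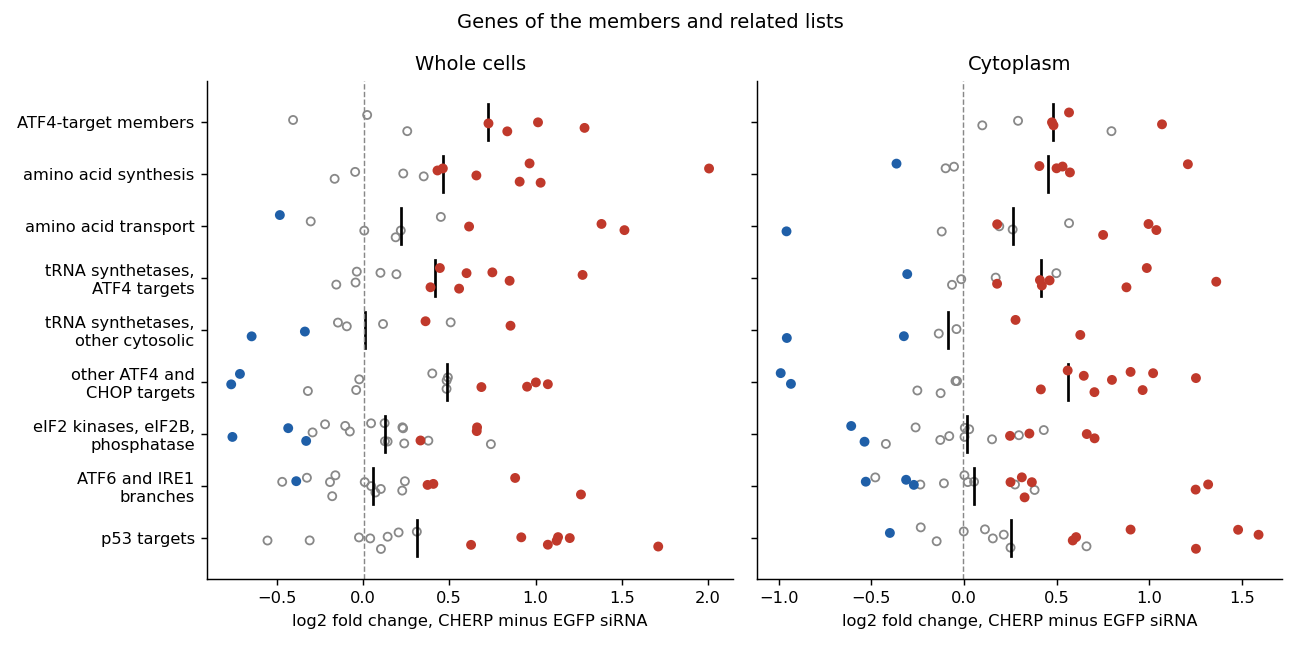
log2 fold change of CHERP siRNA over EGFP siRNA for each tested gene (points) of the members and of related lists, in whole cells (left) and the cytoplasm (right); filled points had an adjusted p under 0.05 (red higher, blue lower), black bars are list medians and the dashed line is the median of all genes tested. Medians of the members, of amino acid synthesis and of the ATF4-target synthetases lie between 0.41 and 0.73 in both panels, and those of the other synthetases lie at 0.01 and -0.09.

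Over the 8 libraries, with log2 abundance centred within each fraction, the genes whose values lay closest to those of ASNS were TOMM20, OCIAD1, PARP4, DPM1 and PSMD3 of 7059 genes. Their root mean square distance from ASNS was 0.038 to 0.047 on the log2 scale. Their log2 fold changes ran from 0.73 to 0.80 in whole cells and from 0.54 to 0.63 in the cytoplasm, beside 0.84 and 0.57 for ASNS. The genes were picked for closeness over these same libraries, so the likeness of their fold changes follows from the choice. None of the 5 is on the lists described above.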

How the data were processed

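RNA-seq of 8 libraries was used. The authors made stranded poly(A)+ libraries, mapped reads to hg19 with STAR 2.5.2b and ran rMATS (version not given in the sources used here). The deposited splicing tables, 1 for each of 5 event types in 2 fractions, give the read signal on the inclusion and skipping forms in each library, without normalization, and the effective lengths. Since a cell joins the reads of 2 libraries, with no replicate number, they were tested by models for such read numbers and not as counts. The deposited expression signal is the authors' mean of normalized counts per siRNA in the cytoplasm, from RSEM 1.2.25 with GENCODE 19 and EBSeq, for genes past the authors' threshold. Its header does not name the siRNA of the C1 and C2 means. C1 was taken as CHERP siRNA because the rows with the higher C1 are as many as the genes the study counts as increased, and CHERP itself is the lower in C1. The authors' p-values, FDR, posterior probabilities, fold changes and inclusion differences were not used, nor were 20 columns with the authors' own inclusion levels, since levels were computed from the reads.

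Gene abundance was tested with limma 3.58.1 in R 4.3.3 on log2(value + 0.01), where value is reads per base of effective length, with a trend, where a gene averaged 20 reads or more over the libraries. Fold changes are on that scale. Inclusion was tested with a quasi-binomial model whose dispersion was moderated by limma. The dispersion ran from 1.17 to 10.8, and an event's own spread had no weight in it. Adjustment was by Benjamini-Hochberg over all genes, or within the event type, at a threshold of 0.05. Reads are not independent molecules, and 2 libraries per group limit the precision. Both tests were also tried on simulated data with 200 genes or events changed. For genes that is far fewer than were called here, so the accuracy of the tests on these data is not known from it. Coordinates are GRCh37, counted from 1, and gene parts come from GENCODE 44 lifted to GRCh37, by the canonical transcript. Tables and figures were made with Python 3.11.15, pandas 2.3.3 and matplotlib.

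The members and the gene lists were chosen with earlier results of these data known, so no p is given over a list. All members and CHERP are named. Of each list, up to 3 genes per fraction with the largest absolute log2 fold change among those past the threshold are named. Of the members' events, some of those with the most reads of a type and some with sequence outside the reference transcript are described. Genes close to ASNS were picked by the smallest root mean square distance. Alternatives were other pseudocounts, filters, scalings, event types, lengths, variance models and each library left out.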

Additional observations from a re-analysis of the deposited data

How the results depend on the processing

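No paired analysis was possible because the libraries joined in a cell of the splicing tables carry no replicate number. With 1 library left out, the lone library of its group is assumed to vary like the others. Fewer members were then called higher without a whole-cell CHERP siRNA library, and more without a whole-cell EGFP siRNA library. In the latter fits a member was also called lower, DDIT3 without the first EGFP siRNA library and DDIT4 without the second. Without the first whole-cell CHERP siRNA library, SESN2 (adjusted p = 0.152, limma) and PSAT1 (adjusted p = 0.104) lost their calls, and without the second, ATF3 (adjusted p = 0.0780) and PSAT1 (adjusted p = 0.222) did, while genes over the whole table fell to 1035 and 979 higher. Over all genes, leaving out libraries gave 979 to 2508 higher and 1101 to 2417 lower in whole cells, 0 to 19 genes that differed between fractions (19 without the second whole-cell EGFP siRNA library), and 329 to 1059 events called in whole cells and 52 to 78 in the cytoplasm, against 1001 and 180 with all libraries. No member event was called under any of these. With events whose rarer form had fewer than 10 reads left out, 1525 and 485 events were called, and by limma on log2 odds 0 and 0. The cause was not tested. With a pseudocount of 0.1, 2 genes differed between fractions in place of 0, and with at least 10 reads per library 7 events did in place of 11.

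Within a fraction, directions turned only for DDIT3, which was near 0 with all libraries but not with a whole-cell EGFP siRNA library left out. Differences between fractions turned as well. DDIT3 in whole cells was -0.017 under scaling by total abundance, -0.0098 with all 5 event types, -0.026 with the deepest event, -0.014 without division by length and -0.28 to 0.33 with libraries left out. In the cytoplasm it was -0.013 with the deepest event, -0.095 without division by length and -0.030 to 0.227 with libraries left out. The difference between fractions turned for PSAT1 with a pseudocount of 0.1 (-0.097), and with libraries left out it ran from -0.311 to 0.449 for PSAT1, from -0.230 to 0.377 for DDIT3 and from -0.606 to 0.176 for ATF3. SESN2 in whole cells lost its call under scaling by total abundance (adjusted p = 0.0571, limma) and with the deepest event (0.0612). PSAT1 in the cytoplasm passed with the deepest event (adjusted p = 0.0397), without division by length (0.0164) and without the first EGFP siRNA (0.0131) or the first CHERP siRNA library (0.0254). The events of TRIB3 and those with a few reads of 1 form are limited by the reads on them, and CHAC1 had no event.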
